A study of Homo sapiens with 2 samples.

Results

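Endoplasmic reticulum (ER) chaperones are the proteins that fold, bridge and check newly made secreted and membrane proteins inside the ER. The 10 genes described here are HSPA5, SDF2L1, DNAJB9, HERPUD1, XBP1, CALR, PDIA4, HSP90B1, HYOU1 and MANF, found by symbol among the 36601 genes listed. Each symbol matched 1 entry. They were measured in reporter-positive cells sorted on day 40 from human inner ear organoids grown from WA25 embryonic stem cells of the SOX2nT line, which carries a nuclear tdTomato reporter for SOX2, a transcription factor of otic and neural progenitors. GelNB-CH, a hydrogel of chemically modified gelatin crosslinked under light with 0.1 wt% PEG4SH, was compared with Matrigel, a basement membrane extract, in 1 single-cell library each. The series title names hair cell differentiation in defined click hydrogels as the subject. The growth text is the same for both libraries and names GelNB-CH embedding on day 11, oDex at 0.02% on day 15 and the WNT activator CHIR99021, so the title and treatment label alone mark the Matrigel library. Both also had growth factor-reduced Matrigel in the medium on day 0, and dissociation in Accutase for 90 min.

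The ER imports proteins as unfolded chains, and its lumen holds chaperones that bind them, isomerases that form their disulfide bonds and lectins that retain sugar-bearing chains until they are folded. When unfolded chains build up, the sensors ATF6, IRE1 and PERK start the unfolded protein response, which raises transcription of chaperones and degradation factors through ATF6 and spliced XBP1 and of amino acid and death genes through ATF4. Cells that secrete heavily, such as cartilage and the OC90-secreting epithelium of the otic vesicle, rely on this machinery. OC90 is a protein of the otoconia, the mineral grains of the vestibular organs.

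Promoters of ER stress genes are known for sequence elements through which ATF6 and XBP1 act, and the matches are shown because they group the 10 genes by a property that no cell was chosen on. RefSeq windows (GRCh38.p14) run from 250 bases before to 50 bases after each annotated start, and all 10 genes had at least 1. The full ER stress response element (ERSE) was searched as CCAAT and CCACG separated by 9 bases, and ERSE-II as ATTGG and CCACG separated by 1 base, on both strands. Capitals mark the match, reading each gene 5′ to 3′ along its own strand, and a match that begins with CGTGG lies on the opposite strand.
HSPA5, ERSE, chr9:125241381-125241419, minus strand: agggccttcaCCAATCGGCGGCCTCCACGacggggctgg
XBP1, ERSE, chr22:28800598-28800631, minus strand: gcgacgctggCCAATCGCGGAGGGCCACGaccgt
CALR, ERSE, chr19:12938374-12938412, plus strand: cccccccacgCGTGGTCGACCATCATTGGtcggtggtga
HSP90B1, ERSE, chr12:103930216-103930234, plus strand: CCAATCGGAAGGAGCCACG
HSP90B1, second ERSE, chr12:103930321-103930339, plus strand: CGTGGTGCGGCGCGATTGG
SDF2L1, ERSE-II, chr22:21642104-21642134, plus strand: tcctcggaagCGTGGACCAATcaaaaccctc
HERPUD1, ERSE-II, chr16:56932015-56932045, plus strand: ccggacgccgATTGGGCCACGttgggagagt
HYOU1, ERSE-II, chr11:119057370-119057400, minus strand: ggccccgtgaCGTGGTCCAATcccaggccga
HYOU1, second ERSE-II, chr11:119057264-119057294, minus strand: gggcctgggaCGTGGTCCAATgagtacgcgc

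The full ERSE was found for 4 of the 10 genes and in 0.0769% of 35116 RefSeq windows, and ERSE-II for 3 of the 10 and in 0.0541% of windows. A gene was counted where any of its windows matched, and XBP1 held no full ERSE at its other annotated start. The genes were chosen as ER chaperone and stress genes, whose promoters are known for these elements, so the counts are not a test. HSP90B1 and HYOU1 carried 2 matches each. The HSPA5 element lay 66 to 48 bases before the start, that of XBP1 52 to 34, and that of CALR 225 to 207. The SDF2L1 element lay 188 to 178 bases before the start and the HERPUD1 element 117 to 107. Both HSP90B1 matches fall inside an exon of another annotated transcript, so only the element itself is printed for them. DNAJB9, PDIA4 and MANF had neither full element in their windows. All 10 genes held CCACG, inside or outside a full element, as did 38.1% of windows. The core of the unfolded protein response element, TGACGTGG, occurred in HYOU1 alone among the 10 genes (0.729% of windows), where it overlaps the more distant ERSE-II. The amino acid response element, searched as TGATGNAAN, occurred in HERPUD1 alone among them (3.61% of windows).

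**Figure D1:**
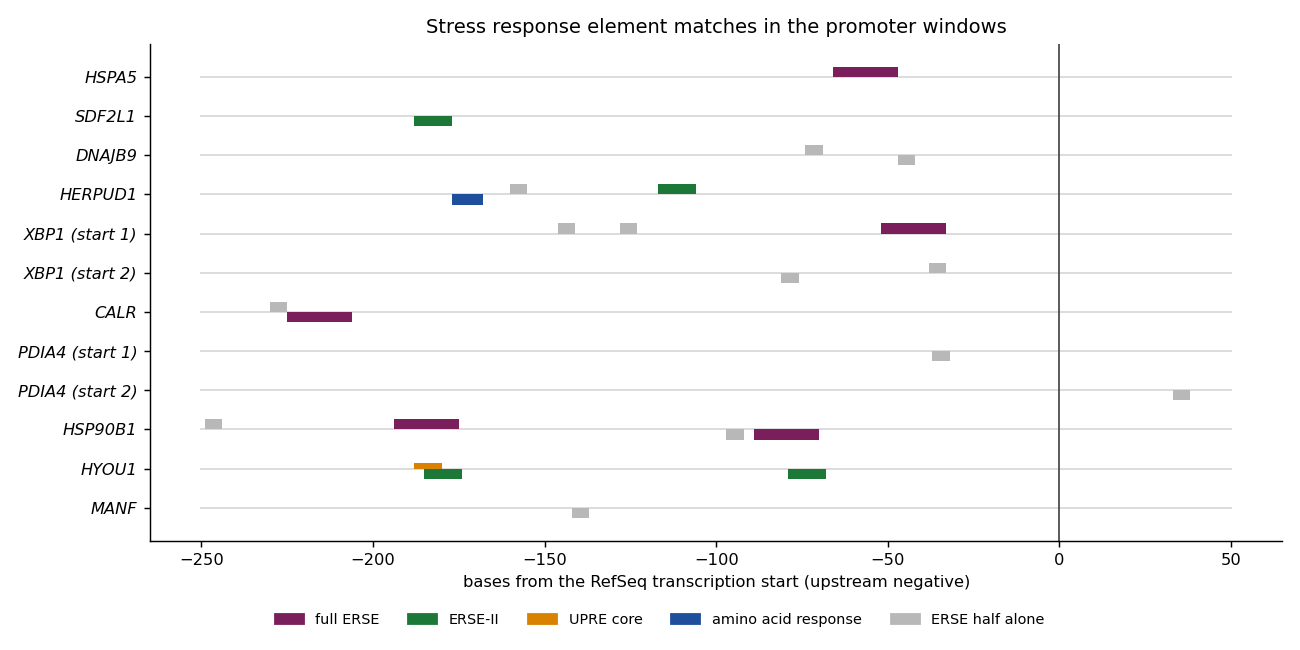
Matches of 5 stress response elements in the RefSeq promoter windows of the 10 genes, by bases from the annotated start; boxes above a line are on the gene's strand and boxes below it on the opposite one, and XBP1 and PDIA4 have 2 annotated starts each. Grey boxes are CCACG outside a full element. HSPA5, XBP1, CALR and HSP90B1 carry a full ERSE, and SDF2L1, HERPUD1 and HYOU1 carry ERSE-II.

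UMIs (unique molecular identifiers, the counted transcripts) totalled 247006223 over 21743 barcodes of GelNB-CH, against 178672097 over 10912 barcodes of Matrigel. Filters left 18086 GelNB-CH cells and 9756 Matrigel cells, with medians of 8533.5 and 13979.5 UMIs per cell, and 78 barcodes occurred in both libraries. Lineages were set by gates on raw UMIs: OC90 of at least 5 for otic cells, COL1A2 of at least 3 for mesenchyme, ACAN of at least 2 for cartilage, CDH19 of at least 3 for glia and STMN2 of at least 5 for neurons. Cells past exactly 1 gate were used, which were 6068 GelNB-CH and 2189 Matrigel otic cells, 5182 and 3000 mesenchyme cells, 1043 and 201 cartilage cells, 249 and 218 glia, and 927 and 506 neurons. The rule removed few otic cells but many others that also passed the COL1A2 gate: it kept 51.0% of GelNB-CH and 18.5% of Matrigel cartilage-gate cells, and 35.5% and 11.5% of glia-gate cells. Of 9 further markers per lineage, 6 otic, 7 mesenchyme, 9 cartilage, 8 glia and 9 neuron markers were at least 2-fold above the mean of the other lineages in both libraries. The otic markers that did not reach this in both libraries are PAX8 and GATA3, at 7.51 and 5.20 CPM in GelNB-CH otic cells and 9.06 and 7.38 CPM in Matrigel otic cells, and SPARCL1, at 41.6 and 25.1 CPM. OC90 itself stood at 27.5 to 29.8 CPM in the 4 other lineages of GelNB-CH and at 12.1 to 15.7 CPM in those of Matrigel, against 4449 and 3520 CPM in otic cells. Levels below are CPM (a gene's UMIs scaled to the total UMIs of a lineage in a library). UMIs are read at 3′ ends and are not scaled by gene length. Brackets give exact 95% intervals for counting error, those of a ratio of ratios being on the log scale. Each matrix was sequenced as a single library, which leaves nothing to test against, and every difference is one between these libraries.

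SDF2L1 was higher in GelNB-CH than in Matrigel in every lineage, and most of the other chaperones stood modestly higher in GelNB-CH. In otic cells the ratio was 1.61 for SDF2L1 and between 1.13 and 1.42 for HSPA5, HSP90B1, PDIA4, CALR and MANF, while HERPUD1 and XBP1 were lower in GelNB-CH when otic cells of all depths were summed. Of the 10 genes, 1 in otic cells, 1 in mesenchyme, 5 in cartilage, 5 in glia and 1 in neurons exceeded Matrigel by 1.5-fold or more, and 0 in any lineage were lower by that fold. The glia count was 1, SDF2L1, with every cell past a gate counted, and also with the COL1A2 overlap given to the other lineage, and the cartilage count was 4 under both. No share of all genes was taken under these 2 gate settings, and the shares below are for cells past exactly 1 gate. Among all genes with a larger level of at least 10 CPM, the share at least 1.5-fold higher was 3.26% in otic cells, 2.15% in mesenchyme, 3.93% in cartilage, 7.10% in glia and 10.2% in neurons. The share at least 1.5-fold lower was 3.27% in otic cells, 3.47% in mesenchyme, 12.1% in cartilage, 17.0% in glia and 9.30% in neurons. The neuron count of 1 in 10 is therefore no more than that of genes at large. The median log2 ratio of GelNB-CH over Matrigel across the 10 genes was 0.28 in otic cells, 0.36 in mesenchyme, 0.58 in cartilage, 0.70 in glia and 0.09 in neurons, beside medians over all compared genes of -0.02, -0.02, -0.08, -0.10 and -0.02. Over all kept cells the median was 0.43 beside -0.03, with SDF2L1 alone past 1.5-fold, where 2.78% of genes were higher and 4.64% lower by that fold.

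The cartilage and glia values rest on the cells that did not also pass the COL1A2 gate. With every cell past a gate counted, the median log2 ratio was 0.49 in cartilage and 0.47 in glia, and with the COL1A2 overlap given to the other lineage it was 0.38 and 0.36. HERPUD1 in glia, 2.11 in cells past exactly 1 gate, was 1.48 and 1.26 under these gates, and SDF2L1 was 1.99 and 1.89 against 2.74. Markers of melanocytes, a pigment cell that like glia derives from the neural crest, summed over 6 genes to 415 CPM in GelNB-CH glia and 88.5 CPM in Matrigel glia, and each of the 6 had counts in both. Their part in the glia ratios was not tested.

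**Figure D2:**
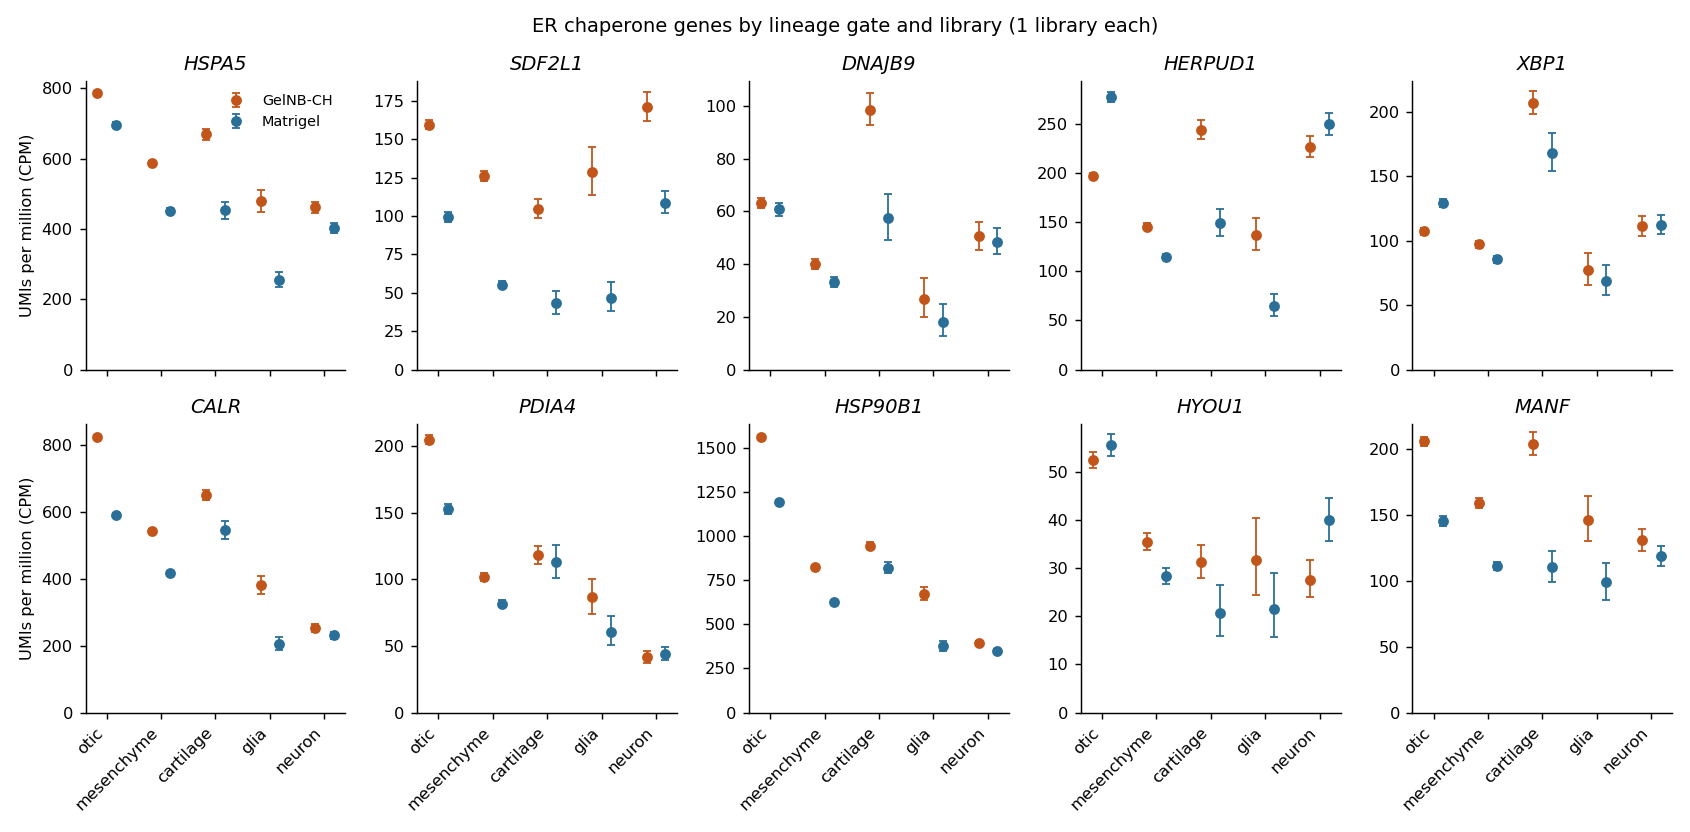
Level of each gene in CPM (vertical axis, from 0) by lineage gate (horizontal axis), GelNB-CH at left and Matrigel at right of each pair; points are 1 library each and bars are 95% counting intervals. HSPA5, CALR, PDIA4, HSP90B1, HYOU1 and MANF are highest in otic cells of both libraries (MANF with an interval that overlaps cartilage in GelNB-CH), XBP1 is highest in cartilage of both, and SDF2L1 is higher in GelNB-CH in all 5 lineages.

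HSPA5, the ER Hsp70 known as BiP that binds unfolded chains and holds the stress sensors inactive, lies on chromosome 9 (GRCh38 125234853 to 125241330). It stood at 786 CPM (779 to 792) in GelNB-CH otic cells and 695 CPM (687 to 703) in Matrigel otic cells, a ratio of 1.13 (1.12 to 1.15). Mesenchyme had 586 and 452 CPM, cartilage 669 and 453, glia 478 and 256, and neurons 462 and 403. The intervals of the libraries did not overlap in any lineage, and glia were past 1.5-fold, at 1.87 (1.68 to 2.08), but not with every cell past the gate counted, at 1.46 (1.41 to 1.52), or with the COL1A2 overlap reassigned, at 1.40. Otic cells ranked first in both libraries, and the lowest level was in neurons of GelNB-CH (with glia overlapping it) and in glia of Matrigel.

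The partners of BiP among the 10 genes, SDF2L1, DNAJB9 and HYOU1, differed in their ratios. SDF2L1 on chromosome 22 (21642261 to 21644298) encodes a soluble lumenal protein that works with ER J-proteins to keep substrates from aggregating. Its levels were 160 CPM (157 to 162) in GelNB-CH otic cells and 99.4 CPM (96.4 to 102) in Matrigel otic cells, 126 and 55.4 CPM in mesenchyme, 105 and 43.3 in cartilage, 129 and 47.0 in glia, and 171 and 109 in neurons. The ratio was 1.61 (1.55 to 1.66) in otic cells, 2.27 (2.17 to 2.38) in mesenchyme, 2.42 (2.02 to 2.93) in cartilage, 2.74 (2.16 to 3.50) in glia and 1.57 (1.44 to 1.71) in neurons. The otic ratio was smaller than that of mesenchyme, with a ratio of ratios of 0.707 (0.666 to 0.750), and close to that of neurons at 1.02 (0.931 to 1.12). Under every alternative run, apart from the separate depth groups, SDF2L1 stayed higher in GelNB-CH, by 1.55-fold to 2.02-fold in otic cells and 2.03-fold to 2.48-fold in mesenchyme. In the depth groups its otic ratio ran from 2.14 at 5000 to 8000 UMIs to 1.35 (1.23 to 1.48) at 32000 UMIs or more. In mesenchyme of at least 32000 UMIs the SDF2L1 ratio was 0.999 (0.397 to 2.10), with 3 GelNB-CH cells. Neurons and otic cells held its highest levels in both libraries, with overlapping intervals.

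DNAJB9 on chromosome 7 (108569568 to 108574850), an ER J-protein that brings BiP to the sensor IRE1, had nearly equal otic levels of 63.1 CPM (61.2 to 64.9) in GelNB-CH against 60.7 CPM (58.4 to 63.1) in Matrigel. Its ratio there was 1.04 (0.990 to 1.09), and in neurons also 1.04 (0.902 to 1.20). In cartilage it stood at 98.6 and 57.3 CPM, a ratio of 1.72 (1.46 to 2.03). Cartilage was therefore its highest lineage in GelNB-CH, whereas in Matrigel cartilage and otic intervals overlapped. HYOU1 on chromosome 11 (119044189 to 119057202), the large Hsp70 relative that exchanges nucleotide on BiP, had the fewest UMIs of the 10 in otic cells, at 52.4 CPM (50.7 to 54.1) in GelNB-CH against 55.5 CPM (53.3 to 57.8) in Matrigel. Its ratio was 0.944 (0.897 to 0.994) in otic cells and 0.692 (0.578 to 0.827) in neurons, whereas the mesenchyme interval was 1.16 to 1.35. The otic ratio turned above 1 after thinning, with median-of-ratios scaling and in cells of 8000 to 16000 UMIs, where it was 1.06 (0.956 to 1.17). The neuron ratio rested on 205 counts in GelNB-CH and 325 in Matrigel.

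The Hsp90, lectin and isomerase members were highest in otic cells of both libraries, as were HSPA5, HYOU1 and MANF. HSP90B1 on chromosome 12 (103930107 to 103953645), the ER Hsp90 that matures integrins and Toll-like receptors, had the most UMIs, at 1566 CPM (1557 to 1575) in GelNB-CH otic cells and 1194 CPM (1183 to 1204) in Matrigel otic cells. It was at 827 and 626 CPM in mesenchyme, 946 and 821 in cartilage, 675 and 378 in glia, and 392 and 347 in neurons. CALR on chromosome 19 (12938578 to 12944489), calreticulin, a calcium-binding lectin chaperone of glycoproteins, had 823 CPM (816 to 830) in GelNB-CH against 590 CPM (583 to 597) in Matrigel otic cells. The lowest CALR levels were in neurons of GelNB-CH, at 253 CPM, and in glia and neurons of Matrigel, at 205 and 231 CPM with overlapping intervals. PDIA4 on chromosome 7 (149003062 to 149028641), a protein disulfide isomerase, had 205 CPM (202 to 208) in GelNB-CH otic cells and 153 CPM (149 to 157) in Matrigel otic cells, against 41.6 and 44.1 CPM in neurons. In otic cells the ratios of these genes lay close together, at 1.31 (1.30 to 1.33) for HSP90B1, 1.39 (1.37 to 1.42) for CALR and 1.34 (1.30 to 1.38) for PDIA4. In cartilage all were smaller, and the PDIA4 interval there, 0.928 to 1.18 around 1.05, includes 1.

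MANF on chromosome 3 (51385047 to 51389397) is a small lumenal protein that binds BiP and is secreted under ER stress, named for its survival effect on neurons. It stood at 206 CPM (203 to 209) in GelNB-CH otic cells and 145 CPM (142 to 149) in Matrigel otic cells, a ratio of 1.42 (1.37 to 1.46). The ratio was 1.43 (1.38 to 1.49) in mesenchyme, 1.85 (1.65 to 2.08) in cartilage, 1.48 (1.24 to 1.78) in glia and 1.10 (1.01 to 1.20) in neurons. MANF varied least between lineages, with 1.57-fold between the highest and lowest in GelNB-CH and 1.47-fold in Matrigel.

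HERPUD1 and XBP1 differed from the folding proteins in otic cells. HERPUD1 on chromosome 16 (56932048 to 56944863) encodes an ER membrane protein that organises the degradation of misfolded proteins. Its otic level was 197 CPM (194 to 200) in GelNB-CH against 277 CPM (272 to 282) in Matrigel, a ratio of 0.711 (0.694 to 0.728). In the other lineages the levels were 145 and 114 CPM in mesenchyme, 244 and 149 in cartilage, 137 and 65.1 in glia, and 227 and 250 in neurons. The ratio was thus above 1 in mesenchyme, at 1.27 (1.23 to 1.32), in cartilage, at 1.64 (1.48 to 1.81), and in glia, at 2.11 (1.71 to 2.61), and below 1 in neurons, at 0.908 (0.851 to 0.969). The otic ratio divided by the mesenchyme ratio was 0.559 (0.535 to 0.584). Otic cells ranked first for HERPUD1 in Matrigel, whereas cartilage and neurons stood above them in GelNB-CH. With every cell past a gate counted, the neuron interval, 0.895 to 1.01, included 1.

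XBP1 on chromosome 22 (28794555 to 28800597) is the transcription factor of the IRE1 branch. The 3′ counts do not separate its spliced from its unspliced transcript. It stood at 107 CPM (105 to 110) in GelNB-CH otic cells and 129 CPM (126 to 133) in Matrigel otic cells, a ratio of 0.829 (0.801 to 0.858). Cartilage had the highest XBP1 level of both libraries, 207 CPM (199 to 216) in GelNB-CH against 168 CPM (154 to 184) in Matrigel, a ratio of 1.23 (1.12 to 1.36). Mesenchyme had 97.2 and 85.6 CPM, glia 77.2 and 69.0, and neurons 111 and 112, where the ratio of 0.990 had an interval (0.900 to 1.09) that includes 1 and turned above 1 with TMM scaling.

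**Figure D3:**
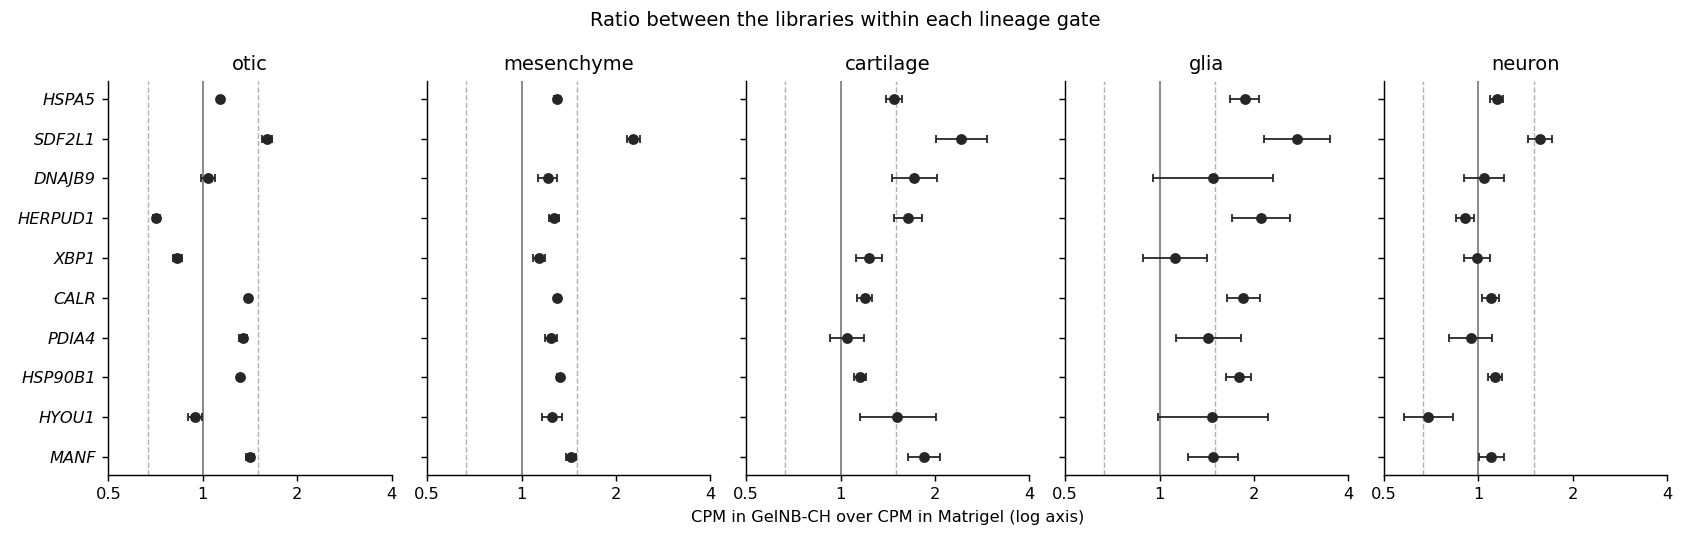
CPM in GelNB-CH over CPM in Matrigel (horizontal log axis) for each gene in each lineage gate, with 95% counting intervals; the solid line marks 1 and the dashed lines 1.5-fold in either direction. SDF2L1 lies above 1.5 in every panel, while HERPUD1 is at 0.711 in otic cells and 2.11 in glia.

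Depth per cell differed between the libraries, with medians of 10009 UMIs in GelNB-CH and 16378 UMIs in Matrigel otic cells, and the levels of several of these genes moved with it. In GelNB-CH otic cells of 5000 to 8000, 8000 to 16000, 16000 to 32000 and at least 32000 UMIs, HERPUD1 stood at 131, 174, 238 and 313 CPM. In Matrigel otic cells of the same depths it stood at 121, 171, 263 and 408 CPM. HSPA5 was at 661, 776, 836 and 925 CPM in GelNB-CH against 380, 535, 674 and 892 CPM in Matrigel over these depths. SDF2L1 was nearly flat in GelNB-CH, at 159, 159, 162 and 157 CPM, and climbed in Matrigel, at 74.0, 78.9, 102 and 116 CPM. The summed level of the 10 genes was 1.62-fold higher in GelNB-CH among the shallowest otic cells (1582 and 105 cells) and 1.11-fold higher among the deepest (110 and 276 cells).

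Among the 2815 GelNB-CH and 878 Matrigel otic cells of 8000 to 16000 UMIs, HERPUD1 stood at 174 and 171 CPM, a ratio of 1.02 (0.967 to 1.08), and XBP1 at 108 and 106 CPM, a ratio of 1.02 (0.954 to 1.09). Neither gene was therefore lower in GelNB-CH in otic cells of this depth. In otic cells of 16000 to 32000 UMIs (1190 and 862 cells) both were, at ratios of 0.904 (0.871 to 0.939) for HERPUD1 and 0.869 (0.822 to 0.918) for XBP1, and in those of at least 32000 UMIs the ratios were 0.768 and 0.785. At 8000 to 16000 UMIs, SDF2L1 in otic cells had a ratio of 2.02 (1.88 to 2.17), MANF 1.69 (1.60 to 1.80) and HSP90B1 1.62 (1.58 to 1.65). PDIA4 was at 1.58 (1.49 to 1.68) and CALR at 1.54 (up to 1.59) in these cells. These 5 genes were past 1.5-fold, where 5.00% of all genes were higher and 3.92% lower by that fold, and the median log2 ratio of the 10 genes was 0.58 beside -0.01 for all genes. The 5 ratios were smaller in deeper otic cells. At 16000 to 32000 UMIs they were 1.60 for SDF2L1, 1.41 for MANF, 1.37 for HSP90B1, 1.36 for PDIA4 and 1.34 for CALR. At 32000 UMIs or more they lay between 1.20 for MANF and 1.35 for SDF2L1. No share of all genes was taken at these greater depths. In mesenchyme of 8000 to 16000 UMIs (2264 and 1894 cells) SDF2L1, MANF and HSP90B1 were past 1.5-fold, at 2.48, 1.57 and 1.52, where 5.99% of genes were higher and 4.53% lower. In neurons of this depth HERPUD1 remained at 0.898 (0.817 to 0.987) and HYOU1 at 0.672 (0.512 to 0.879). The part of depth in the other ratios was not tested.

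**Figure D4:**
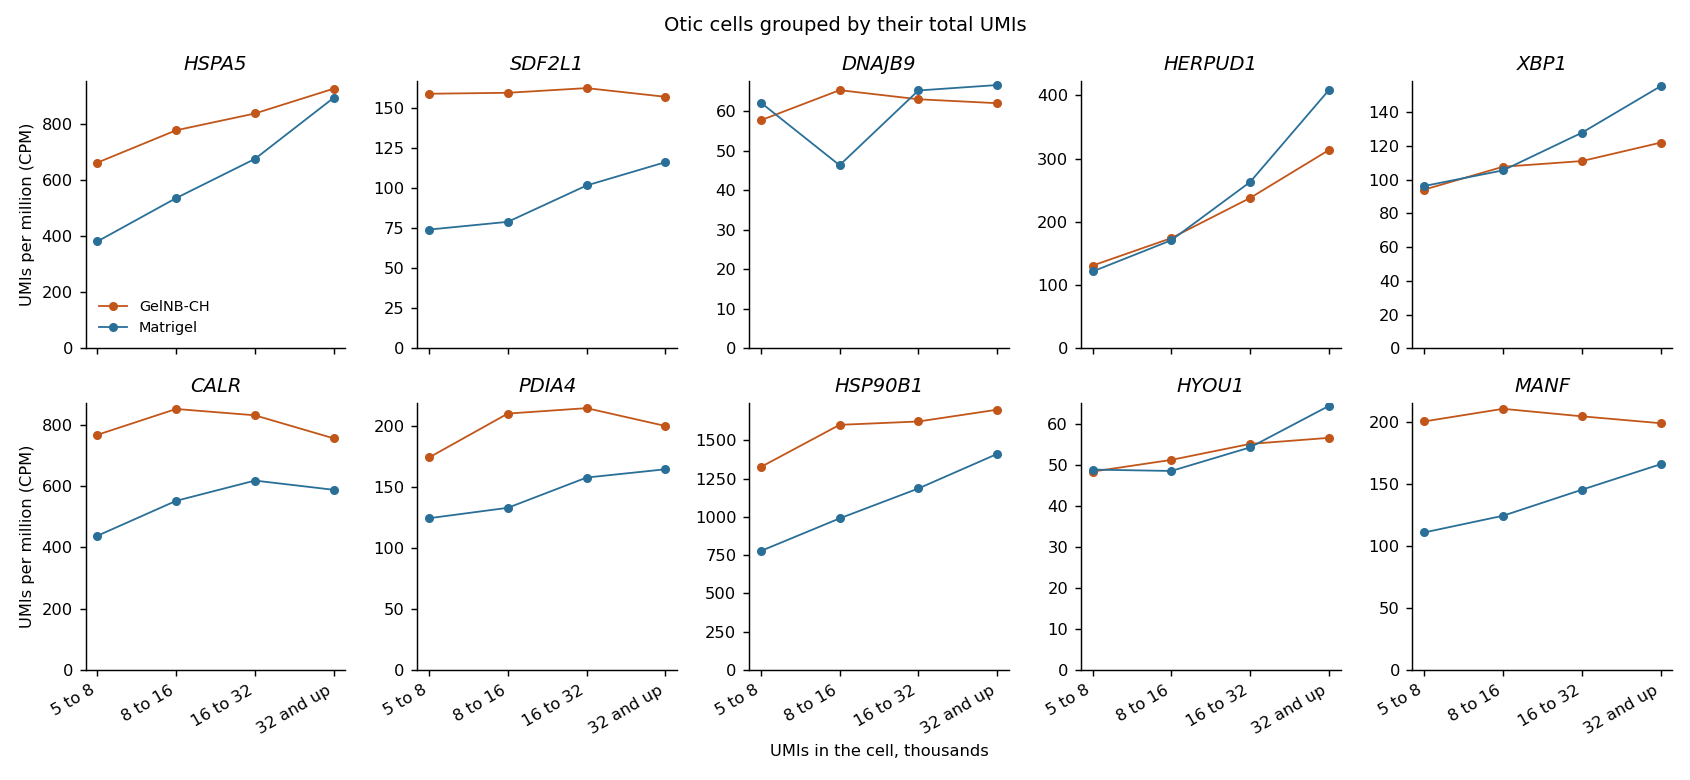
Level of each gene in CPM (vertical axis, from 0) in otic cells grouped by their total UMIs (horizontal axis, in units of 1000 UMIs, low to high), as 1 line per library. HERPUD1 climbs with depth in both libraries, to 313 CPM in GelNB-CH against 408 CPM in Matrigel, while SDF2L1 stays at 157 to 162 CPM in GelNB-CH.

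The lineages differed in these genes by up to 4.93-fold within a library. PDIA4 and HSP90B1 were at least 2-fold above the mean of the 4 other lineages in otic cells of both libraries, 2 of the 10 genes, where 7.34% of all genes were. PDIA4 stood 2.35-fold above that mean in GelNB-CH and 2.04-fold in Matrigel. The same genes, PDIA4 and HSP90B1, were the 2 at least 2-fold lower in neurons, where 14.5% of genes were. DNAJB9 was the 1 gene at least 2-fold lower in glia, where 10.5% of genes were, with 26.7 CPM in GelNB-CH against 18.1 CPM in Matrigel. The neuron and glia counts are therefore near those of genes at large. With every cell past a gate counted, no gene was past 2-fold in otic cells or in glia. Summed over the 10 genes, otic cells held 4165 and 3399 CPM, cartilage 3273 and 2481, mesenchyme 2659 and 2005, glia 2167 and 1219, and neurons 1867 and 1704 in GelNB-CH and Matrigel. Otic cells ranked first and cartilage second in both libraries, whereas the lowest was neurons in GelNB-CH and glia in Matrigel.

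Per cell, after thinning each cell to 5000 UMIs, GelNB-CH otic cells held a median of 18 UMIs of the 10 genes (10th to 90th percentile 8 to 35), and Matrigel otic cells 13 (5 to 28). The medians were 11 and 8 in mesenchyme, 15 and 12 in cartilage, 10 and 5 in glia, and 7 and 7 in neurons. The spreads of the libraries overlapped widely in every lineage. At this depth HSP90B1 was seen in 98.3% of GelNB-CH and 96.1% of Matrigel otic cells, and its lowest share was 72.6%, in Matrigel glia. SDF2L1 was seen in 45.6% (44.3% to 46.9%) of GelNB-CH otic cells and 28.8% of Matrigel otic cells, against 65.6% and 60.2% before thinning. HERPUD1 was seen in 39.6% and 46.0% of otic cells after thinning. No lineage here lacks these genes, so no background share from free RNA could be taken.

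Within otic cells, the folding proteins were higher where OC90 was higher. Otic cells of each library were ranked by thinned OC90 UMIs into 3 equal groups of 1899 cells in GelNB-CH and 707 in Matrigel, with mean OC90 of 10.2, 21.7 and 39.1 UMIs in GelNB-CH and 6.52, 15.8 and 31.1 in Matrigel. The summed level of the 10 genes was 3472, 4068 and 4652 CPM in GelNB-CH against 2687, 3199 and 3447 CPM in Matrigel from low to high OC90. CALR was 1.51-fold higher (1.46 to 1.56) in the high than in the low group of GelNB-CH and 1.60-fold in Matrigel. MANF was 1.53-fold and 1.34-fold higher, SDF2L1 1.45-fold and 1.47-fold, HSP90B1 1.36-fold and 1.33-fold, and PDIA4 1.29-fold and 1.28-fold. HERPUD1 did not follow, with high over low ratios of 0.912 (0.852 to 0.977) in GelNB-CH against 0.980 (0.890 to 1.08) in Matrigel, nor did DNAJB9, whose intervals included 1 in both. HYOU1 was 1.21-fold higher (1.07 to 1.38) in GelNB-CH, with an interval that included 1 in Matrigel. Cells with a UMI count of at least 2 for MKI67 and TOP2A together, taken as cycling, made up 18.9%, 10.2% and 4.53% of GelNB-CH cells and 18.2%, 12.2% and 6.36% of Matrigel cells from low to high OC90. Depth before thinning also differed, with medians of 11475, 10832 and 9319 UMIs in GelNB-CH from low to high OC90. The part of cycling cells and of depth in the OC90 relation, and in the HERPUD1 ratios, was not tested.

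**Figure D5:**
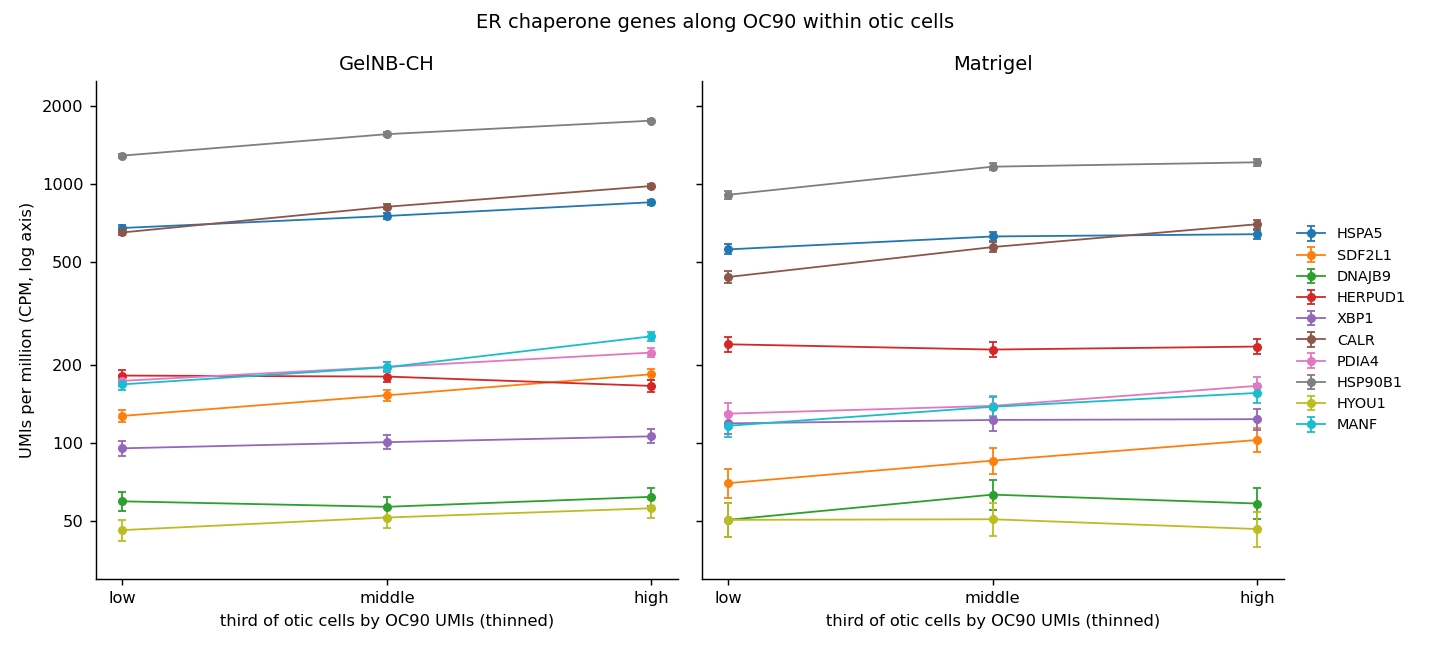
Level of each gene in CPM (vertical log axis) in otic cells of low, middle and high OC90, GelNB-CH in the left panel and Matrigel in the right, with 95% counting intervals after thinning to 5000 UMIs. CALR, MANF and SDF2L1 climb with OC90 in both libraries, while HERPUD1 does not.

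In no other lineage was the summed level higher with the gate gene in both libraries beyond the intervals. In mesenchyme ranked by COL1A2, a collagen chain gene, the summed level in the high over the low group was 0.903 (0.886 to 0.921) in GelNB-CH against 0.852 (0.828 to 0.877) in Matrigel. HERPUD1 had the ratio 0.641 and SDF2L1 0.702 in GelNB-CH mesenchyme, and 0.516 and 0.439 in Matrigel mesenchyme. CALR was the exception there, at 1.06 (1.01 to 1.10) and 1.10 (1.03 to 1.17). Along STMN2 in neurons the summed ratio was 0.768 in GelNB-CH and 0.735 in Matrigel. Along ACAN in cartilage it was 0.875 (0.842 to 0.908) in GelNB-CH against 1.08 (0.973 to 1.19) in Matrigel. Along CDH19 in glia it was 1.04 (0.939 to 1.15) in GelNB-CH against 0.591 (0.506 to 0.689) in Matrigel, the lowest of these ratios.

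Between single otic cells the 10 genes were weakly correlated, as a description over cells that share a library. Pearson's r of log thinned UMIs over the 45 pairs had medians of 0.135 in GelNB-CH (5697 cells) and 0.145 in Matrigel (2121 cells). The same 3 pairs had the highest r in both libraries, HSPA5 with HSP90B1 at 0.390 and 0.404, HSPA5 with HERPUD1 at 0.375 and 0.362, and CALR with HSP90B1, the highest pair of GelNB-CH, at 0.400 and 0.350. XBP1 with PDIA4 stood at 0.0439 and 0.0159. The genes outside the group most like its summed UMIs, by the lower r of the libraries among 6838 genes, were the isomerase PDIA3 (0.351 in GelNB-CH and 0.361 in Matrigel) and, at 0.278 or below, ATF3, PDIA6, FOS, CCN2, CCN1, DDIT3, ISG15, JUN and FOSB. ATF3, FOS, JUN and FOSB are immediate early transcription factors and DDIT3 encodes CHOP, a factor of the PERK branch. Of these 10 genes, 4 were also among the 10 most alike in mesenchyme, 3 in neurons, 2 in cartilage and 1 in glia.

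In otic cells of all depths the medians of the wider ER lists lay between 0.02 and 0.13, beside 0.28 for the 10 genes. Of 21 other chaperones and foldases compared, 1 was past 1.5-fold higher, CRELD2, a stress-induced isomerase-like protein, at 56.6 CPM in GelNB-CH against 32.2 CPM in Matrigel (ratio 1.76). FKBP2, an ER prolyl isomerase, was the 1 lower, at 12.4 and 27.8 CPM (0.448). PPIB, cyclophilin B, was at 555 and 380 CPM (1.46), and ERO1A, the oxidase that recharges the isomerases, at 24.1 and 32.4 CPM (0.743). The list's median log2 ratio was 0.13. Of 16 ER-associated degradation genes, 6 stress sensors and their proteases, 18 translocon and signal peptide genes and 13 coat and cargo genes, 0 passed 1.5-fold in either direction, with medians of 0.02, 0.05, 0.10 and 0.07. In the degradation list the ends were DERL2 (ratio 1.14) and SELENOK (1.14), and SYVN1, the ER ubiquitin ligase (0.725), and UBE2J1 (0.851). Among the sensors they were ATF6B (1.19) and MBTPS2 (1.15), and ERN1, which encodes IRE1 (0.881), and MBTPS1 (0.973). In the translocon list they were SSR4 (1.31) and SPCS2 (306 and 244 CPM), and SEC61G (0.697) and SEC62 (0.826). In the coat and cargo list they were CREB3L2 (1.24) and SEC24D (1.22), and MIA2 (0.870) and SAR1B (0.948). At 8000 to 16000 UMIs the median of the foldase list was 0.31, beside 0.58 for the 10 genes. Those of the degradation, sensor, translocon and coat lists were 0.11, 0.02, 0.12 and 0.16. At that depth 3 of 22 other chaperones and foldases were past 1.5-fold higher and 1 lower. Of 13 coat and cargo genes, 2 were higher and 0 lower. The degradation, sensor and translocon lists had 0 past that fold, where 5.00% of all genes were higher and 3.92% lower.

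Most genes of the PERK and ATF4 branch were lower in GelNB-CH otic cells. Of 10 compared, 7 were at least 1.5-fold lower and 0 higher, where 3.27% of all genes were lower, and the median log2 ratio was -1.12. TRIB3, a pseudokinase target of ATF4, stood at 2.89 CPM in GelNB-CH against 14.0 CPM in Matrigel (ratio 0.206), and ATF5, a related factor, at 33.6 and 136 CPM (0.247). ATF4 itself was at 102 and 125 CPM (0.819), and PPP1R15A, the phosphatase subunit that ends PERK signalling, at 63.6 and 88.9 CPM (0.716). Among otic cells of 8000 to 16000 UMIs, 6 of 10 were lower and 0 higher, with a median of -0.89. Of all genes at that depth, 3.92% were lower and 5.00% higher. In the other lineages 1 of 8 compared was lower in mesenchyme, 1 of 7 in cartilage, 2 of 7 in glia and 4 of 11 in neurons, where 3.47%, 12.1%, 17.0% and 9.30% of all genes were. The cartilage count is near its share, and each of these counts rests on few genes. The lowest ratios were those of ATF3 in mesenchyme (0.631), DDIT4 in cartilage (0.625), SLC7A11 in glia (0.368) and ATF5 in neurons (0.369). In the same order 0, 1, 2 and 0 genes were higher, where 2.15%, 3.93%, 7.10% and 10.2% of all genes were. The highest ratios were those of DDIT3 in mesenchyme (1.12), cartilage (2.07) and glia (1.76) and of VLDLR in neurons (1.22).

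Of 10 cytosolic heat shock genes, whose products fold proteins outside the ER, 3 were past 1.5-fold higher in GelNB-CH otic cells and 0 lower, where 3.26% of all genes were higher, with a median log2 ratio of 0.41. The 3 are HSPA1A, HSPA1B and DNAJB1, the last named after its values were seen. The smallest otic ratios were 0.974 (0.872 to 1.09) for BAG3, a co-chaperone of Hsp70, and 0.984 (0.974 to 0.994) for HSP90AB1, a cytosolic Hsp90. In other lineages 2 of 10 were higher in mesenchyme, 6 of 10 in cartilage, 9 of 10 in glia and 8 of 9 in neurons, where 2.15%, 3.93%, 7.10% and 10.2% of all genes were. Counted over every cell past a gate, the numbers were 4 in mesenchyme, 4 in cartilage, 6 in glia and 7 in neurons. With the COL1A2 overlap reassigned they were 2, 4, 5 and 8. No share of all genes was taken under these gates. In cells past exactly 1 gate, the lowest ratios outside otic cells were those of HSPA1B in mesenchyme (1.08), BAG3 in cartilage (0.997) and HSP90AB1 in glia (1.47) and neurons (1.40). The highest in mesenchyme and cartilage were those of HSPH1 (1.73) and HSPA1A (2.20). HSPA1A, the inducible Hsp70, stood at 183 CPM in GelNB-CH against 69.6 CPM in Matrigel otic cells (ratio 2.62) and at 268 and 47.0 CPM in glia (5.71). HSPA1B, another inducible Hsp70, was at 69.8 and 38.6 CPM in otic cells (1.81). DNAJB1, its J-protein partner, stood at 282 and 48.0 CPM in neurons (5.88). Their part in the ratios of the ER chaperones was not tested.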

How the data were processed

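SOX2 reporter-positive organoid cells were measured by 10x 3′ assay v3.1 in 1 GelNB-CH and 1 Matrigel library. The deposited values are raw UMI counts per gene and barcode in matrices filtered to called cells by Cell Ranger, version 4.0.0 per the labels' protocols and 7.1.0 per the file headers; STAR and GRCh38 (hg38) are named per the submitters' processing notes. Cells with at least 1000 genes and at most 15% mitochondrial UMIs were kept, and doublets called by Scrublet (scanpy 1.11.5, expected rate 0.8% per 1000 barcodes), 14.9% of GelNB-CH and 6.97% of Matrigel barcodes, were left out. UMIs were summed per library and lineage, for cells past exactly 1 gate, and given as CPM with exact Poisson intervals; ratios had exact conditional binomial intervals and shares Clopper-Pearson intervals (scipy 1.17.1). A gene was counted past a fold of 1.5 where its larger level was at least 10 CPM. Cells were thinned to 5000 UMIs for per-cell measures. Alternatives covered gates, doublets, cell filters, depth, scaling (edgeR 4.0.16 TMM) and folds. The counting code was tested on simulated data.

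The 10 genes and all lists were chosen with earlier results of these data known. From each other list the text names the 2 genes of largest and the 2 of smallest otic ratio, and in other lineages those at either end, printed here for the PERK and heat shock lists; the genes most alike are the 10 of highest lower r.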

Additional observations from a re-analysis of the deposited data

Results flagged for a closer look

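HERPUD1, XBP1 and HYOU1 had ratios of GelNB-CH over Matrigel on opposite sides of 1 in different lineages, beyond their counting intervals. HERPUD1 was at 0.711 in otic cells and 0.908 in neurons, and at 2.11 in glia. XBP1 was at 0.829 in otic cells and 1.23 in cartilage. HYOU1 was at 0.944 in otic cells and 0.692 in neurons, and at 1.51 in cartilage. With 1 library a group, the differences between lineages were not tested across replicates. Among otic cells of 8000 to 16000 UMIs the ratios were 1.02 for HERPUD1, 1.02 for XBP1 and 1.06 for HYOU1. At 16000 to 32000 UMIs they were 0.904 for HERPUD1, 0.869 for XBP1 and 1.02 for HYOU1. HYOU1 in cartilage was 1.13 with every cell past the gate counted.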

How the results depend on the processing

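Apart from the separate depth groups given above, SDF2L1 stayed higher in GelNB-CH under every alternative run. The ranges were 1.94-fold to 2.78-fold in cartilage, 1.89-fold to 3.04-fold in glia and 1.45-fold to 2.02-fold in neurons. No median over the 10 genes changed sign under these alternatives. Of 50 ratios of a gene in a lineage, 5 changed sign among cells of 8000 to 16000 UMIs. The median log2 ratio was 0.45 in mesenchyme and 0.47 in glia with every cell past a gate, 0.58 in otic cells, 0.51 in mesenchyme and 0.27 in neurons at 8000 to 16000 UMIs, 0.38 in otic cells after thinning, and 0.44 in glia with gates on thinned UMIs. It was 0.36 in otic cells, 0.45 in mesenchyme and 0.76 in cartilage with TMM, 0.38, 0.46 and 0.78 with median-of-ratios scaling, 0.32 in otic cells without cycling cells, and 0.36 in glia with the COL1A2 overlap reassigned, an alternative chosen after seeing the data. Genes past 1.5-fold numbered 1 in glia with every cell past a gate and 1 with the overlap reassigned; 5 in otic cells, 3 in mesenchyme and 3 in cartilage at 8000 to 16000 UMIs; 2 in otic cells and 9 in glia after thinning. They numbered 2 in glia with gates on thinned UMIs, 0 in neurons with gates raised 3 times, 2 in mesenchyme and 9 in glia with TMM, 2 in otic cells, 2 in mesenchyme and 9 in glia with median-of-ratios scaling, and 3 in cartilage and 9 in glia without cycling cells. With a threshold of 25% between the larger and the smaller level, in either direction, 6 passed in otic cells (HERPUD1 as lower in GelNB-CH), 7 in mesenchyme, 9 in glia and 2 in neurons (HYOU1 as lower), and at 2-fold 0 in otic cells, 1 in cartilage, 2 in glia and 0 in neurons. Genes 2-fold from the other lineages numbered 0 in otic cells and 0 in glia with every cell past a gate, 1 in otic cells and 1 in neurons at 8000 to 16000 UMIs, and 1 in otic cells and 1 in cartilage with TMM over lineages. Among these alternatives, the share of all genes past 1.5-fold was taken only for otic cells and mesenchyme at 8000 to 16000 UMIs, given above. The other counts have no such share to be read beside. TMM moved log2 ratios by 0.18 in cartilage and 0.15 in glia, and median-of-ratios scaling by 0.20 and 0.11. The causes of these shifts were not tested. No paired analysis was possible because each group has 1 library.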
